A study of Rattus norvegicus with 48 samples.

Results

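In the fat of 24 rats, 20 of 23481 genes (0.0852%) were higher in every visceral library than in any subcutaneous library and also had a mean log2 difference of at least 1. The members were chosen by their measured depot difference, from counts scaled to a library total of 1000000 (CPM) and L, the log2 of CPM plus a pseudocount of 0.5. A gene was a member where the lowest of the 24 visceral values lay above the highest of the 24 subcutaneous values and the mean of L differed by at least 1. Of the 23481 genes, 46 (0.196%) had no overlap in that direction, and 26 of these had a mean difference below 1. The depot difference is therefore described here and not tested.

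Fat from under the skin (subcutaneous adipose tissue, SAT) and from the body cavity (visceral adipose tissue, VAT) was taken from male adolescent rats on postnatal day 61. Rats were sedentary or exercised, and belonged to an early group, at zeitgeber time 13, or to a late group, at zeitgeber time 23, where zeitgeber time counts hours from lights on and both times fall in the rat's active phase. The conditions are abbreviated EAC and LAC for the early and late controls and EAE and LAE for the early and late exercised rats. With 6 rats in each of the 4 conditions and both depots of each sequenced, there were 8 groups and 48 libraries. Tissue was collected 24 h after the last session, and the sources used here do not say which fat pad was sampled as visceral or what the exercise was. All groups are of one sex and age, and the labels name no genotype or drug.

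White fat is not one organ. Subcutaneous fat lies under the skin, whereas visceral fat lies in the body cavity, is covered by a mesothelium and has a partly different developmental origin. A piece of either depot holds adipocytes together with their progenitors, vessels, nerves and immune cells, and genes set up during development of the body plan are known to keep different levels between the depots in adult life. The identifiers in the count table could not be paired with gene symbols, so neither the function of the members nor the tissue's defining markers could be examined. In these bulk samples, more cells of a type and more RNA per cell cannot be told apart.

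Members are numbered 1 to 20 by falling mean difference of L. Levels were not divided by transcript length, so they compare libraries for one gene and not one gene with another. Library totals ran from 13163675 to 17890033 estimated counts, with a median of 15576425. In 4 libraries the whole profile stood apart from its depot, with a median Spearman correlation to the other libraries of that depot over 5 median absolute deviations below the depot's median. They were SAT LAE replicates 4 and 6 and, much less far off, VAT EAC replicate 5 and VAT EAE replicate 3. Without these 4 libraries the rule found 22 genes.

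**Figure D1:**
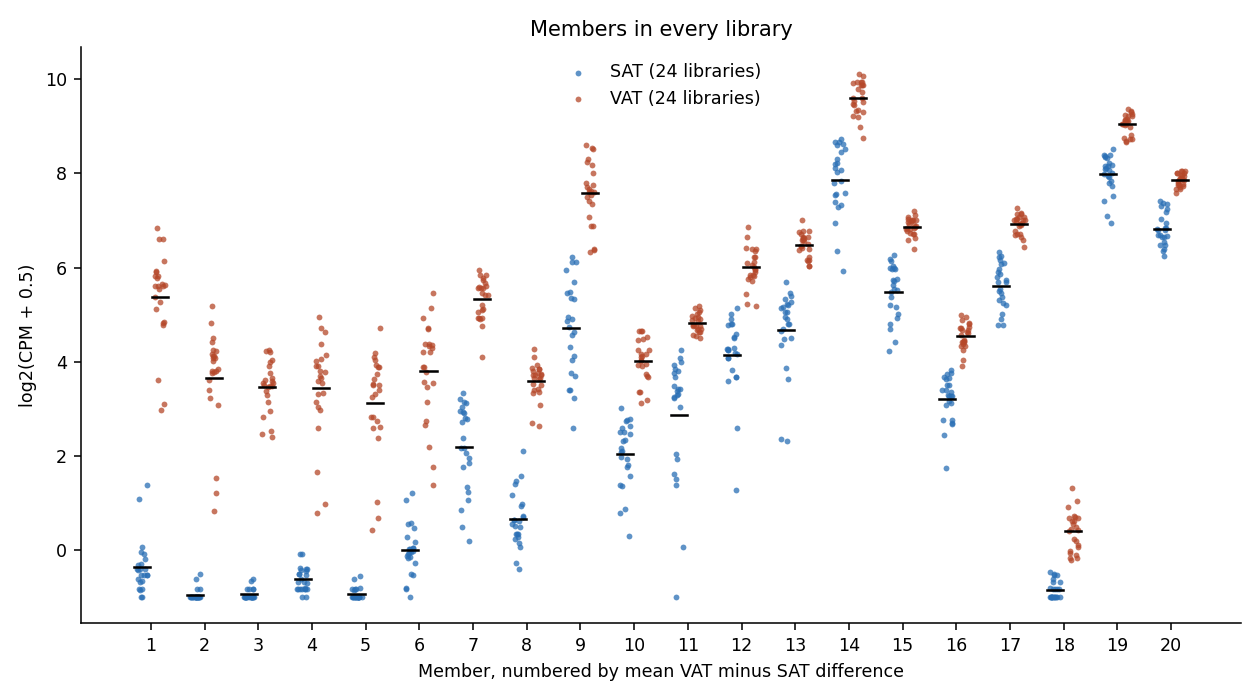
Each point is 1 library: log2(CPM + 0.5) on the vertical axis for members 1 to 20 on the horizontal axis, SAT in blue, VAT in red, with a black bar at the mean of 24 libraries. Members 1 to 6 sit near the lower end of the scale in SAT, while members 9, 14 and 19 are well above it in both depots.

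The members formed a graded series in size. Members 1 to 6 had mean differences of L between 3.80 and 5.73, members 7 to 9 between 2.87 and 3.15, and members 10 to 20 between 1.04 and 1.99. As ratios of mean CPM, the same groups covered 29.3 to 735, 6.58 to 9.92 and 2.01 to 13.5. The 13.5 belongs to member 18, a gene of low counts whose difference of L, 1.23, is held down by the pseudocount. The other members among 10 to 20 lay at 4.11-fold or less. The pseudocount of 0.5 also holds down the differences of members 1 to 6, whose SAT medians were 0 to 0.483 CPM. Their order by L is therefore not their order by ratio. Member 1, first by L, had a ratio of 137, and members 2, 3 and 5 had 735, 507 and 367. Members 4 and 6 had 80.6 and 29.3.

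ENSRNOG00000019445, member 1, had the largest difference of L. In VAT its lowest, median and highest values were 7.39, 48.2 and 114 CPM, and in SAT they were 0, 0.221 and 2.11 CPM. The lowest VAT library thus lay well above the highest SAT library, with a gap of 1.60 on the scale of L. The highest 2 SAT values, 1.63 and 2.11 CPM, came from the 2 SAT libraries that stand apart, LAE replicates 4 and 6. The other 22 SAT libraries did not exceed 0.542 CPM.

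ENSRNOG00000039931, member 2, had 7 counts in all 24 SAT libraries together and 5709 in VAT. Its VAT values ran from 1.29 to 35.6 CPM with a median of 14.8 CPM, and its highest SAT library had 0.203 CPM. All 12 SAT libraries of the late phase had a count of 0. Pooled over the libraries of a depot, the ratio was 780, with a range of 378 to 1939 from the exact 95% Poisson interval of the SAT counts; intervals and floors given here cover counting error only.

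Members 2, 3, 5 and 18 had no SAT library above 3 counts, the limit that a count of 0 allows. Their SAT totals were 7, 8, 10 and 23 counts. For member 3 the pooled ratio was 519 (263 to 1203), for member 5 it was 374 (204 to 781) and for member 18 it was 13.9 (9.25 to 21.9). For these 4 genes the SAT level was therefore barely detectable at this depth, which is not the same as absent. Member 3 nevertheless had the widest gap of all, 3.03, because its lowest VAT library still held 4.82 CPM.

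Members 7 to 20, apart from member 18, were above 3 counts in every library of both depots, with 1 exception: member 11 had a count of 0 in 1 SAT library, of an EAE rat, and its other SAT libraries reached 18.5 CPM. Member 14 ran from 429 to 1112 CPM in VAT and from 60.7 to 424 CPM in SAT, so its lowest VAT and highest SAT libraries almost met, with a gap of 0.0158. Member 19 ran from 409 to 661 CPM in VAT and from 122 to 366 CPM in SAT. Member 20 ran from 191 to 266 CPM in VAT and from 75.04 to 170 CPM in SAT, the smallest difference of the 20. Member 7 ran from 16.6 to 61.4 CPM in VAT and from 0.638 to 9.54 CPM in SAT, a wider separation than any of these 3.

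The 2 limits of the rule cut through a continuous range. The smallest mean differences inside were 1.04, 1.07 and 1.23, and the largest outside among genes without overlap were 0.997, 0.897 and 0.871. The smallest gaps inside were 0.0158, 0.0328 and 0.0853, for members 14, 12 and 16. Just outside by the gap stood a gene at 0 in all SAT libraries and in at least 1 VAT library, then genes with overlaps of -0.0026 and -0.0306. Members at the edge also depend on the scaling. With library sizes from TMM (trimmed mean of M values), which raised VAT against SAT by 0.16 on the log2 scale on average, 21 genes met the rule and members 10, 14, 15 and 16 did not.

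The depot difference was present in each rat and in each condition, which the absence of overlap requires. Taken between libraries of the same group and replicate number, the smallest difference of L over all members and rats was 0.255, for member 20 in an EAE rat. The median over members of the mean difference was 1.90 in sedentary and 2.20 in exercised rats. Without the 4 libraries that stand apart, these medians were 1.91 and 1.92. Over all genes, 43.3% were called between the depots in sedentary rats and 50.3% in exercised rats, in either direction, so a depot difference as such is common and these genes differ by the lack of overlap. The mirrored rule, for genes higher in every SAT library, found 40 genes, and 125 without the 4 libraries.

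Part of the spread within SAT belonged to the 2 late exercise libraries that stand apart. For 8 of the 14 members from 7 to 20, both of these libraries were below all 22 other SAT libraries. The share of all genes with this pattern is not given here. Both libraries differed over the whole profile, with a median Spearman correlation of 0.822 and 0.840 to the other SAT libraries. The pattern was therefore not shown to be particular to the members. Member 13 had 4.47 and 4.65 CPM in them against at least 11.9 CPM elsewhere in SAT, and member 14 had 60.7 and 81.4 CPM against at least 124 CPM. Member 1 went the other way, as given above. Low SAT values favour a gene's entry under the rule, and leaving libraries out cannot create an overlap, so the rule's result without these libraries says little about the members.

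Variation within VAT differed among the members. The coefficient of variation of CPM over the 24 VAT libraries was 35.7% to 61.6% in members 1 to 6 and 9.499% to 46.8% in members 7 to 20. The summed level of members 1 to 6 ran from 18.2 to 239 CPM in VAT, with a median of 117 CPM, and from 0.399 to 2.68 CPM in SAT. The 3 lowest VAT sums were 18.2 CPM in LAC replicate 2, 20.1 CPM in EAE replicate 6 and 27.3 CPM in EAE replicate 5, and the highest was 239 CPM in EAC replicate 3. High and low libraries occurred within the same condition: LAC held both 18.2 and 232 CPM.

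**Figure D2:**
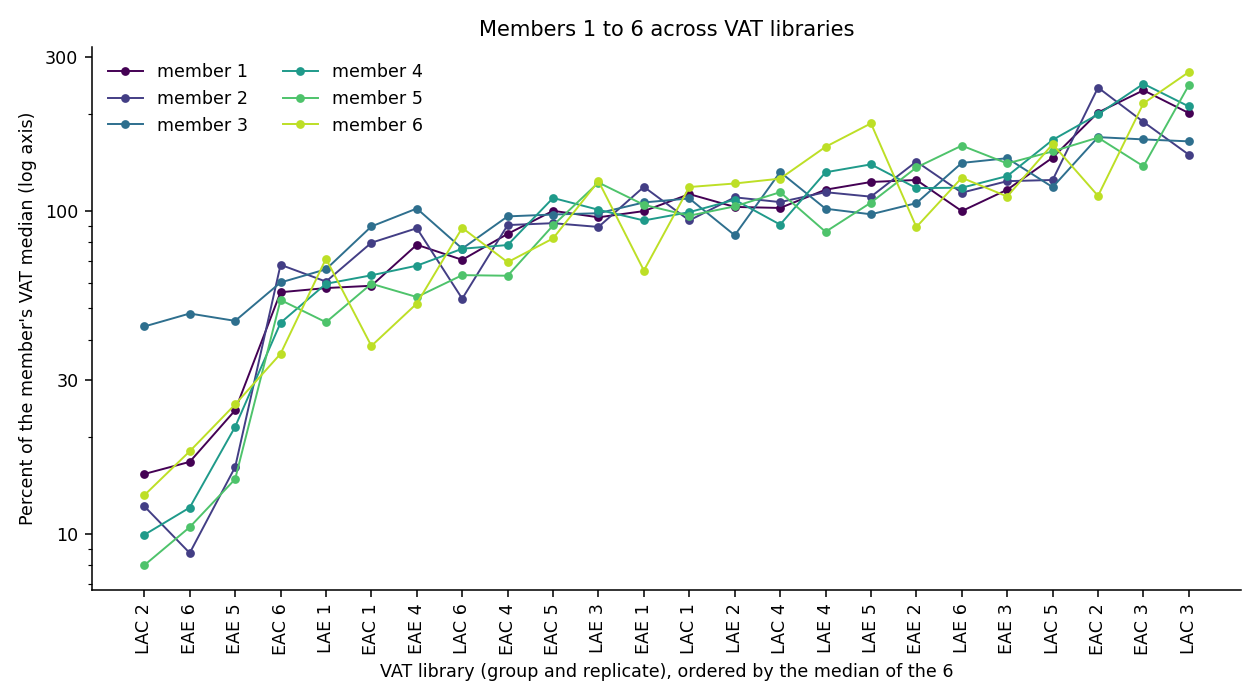
Lines show members 1 to 6, each as percent of its own VAT median (log axis), over the 24 VAT libraries ordered by the median of the 6. The 6 lines fall together in LAC replicate 2 and EAE replicates 6 and 5, with member 3 falling least, and rise together in EAC replicate 3 and LAC replicate 3.

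Members 1 to 6 moved together from rat to rat. After subtraction of group means, Pearson's r of log2 CPM between 2 of them in VAT was 0.897 to 0.993 over the 15 pairs (n = 24 libraries), with a median of 0.959. Of the 15 pairs, 14 reached 0.9, a value reached by 0.214% of all pairs among the 13883 genes tested in VAT, where the median r was 0.19. Members 1 and 4 had the closest profiles, at 0.993. Without VAT LAC replicate 2, the lowest library for members 1, 3, 4, 5 and 6, the range was 0.860 to 0.990 and the median 0.939. These correlations share libraries and their scaling, and the 6 genes were grouped after their values were seen, so they are a description without a test.

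The low libraries VAT LAC replicate 2 and VAT EAE replicates 6 and 5 held 15561472, 15511464 and 15549818 counts. The median over all libraries was 15576425. In that order, their whole profiles correlated with the other VAT libraries at a median Spearman rho of 0.984, 0.982 and 0.979. Whether depth or library quality had a part in the low values was not tested. VAT LAC replicate 2 also had the highest VAT value of member 12, 115 CPM. Whether a different make-up of the tissue piece moved with these values was not tested, because no cell type markers could be identified.

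Members 7, 9, 13, 14, 16, 19 and 20 were grouped as a second set because of their correlations in VAT, so the values that follow describe that choice and test nothing. Their 21 pairs had r of 0.600 to 0.941, with a median of 0.848, and 5 of the 21 reached 0.9, against 0.214% of all gene pairs. Between the 2 sets, the 42 pairs had r of -0.466 to 0.117, with a median of -0.247. VAT LAC replicate 4 was the lowest VAT library for members 7, 13, 14 and 16 and VAT EAC replicate 4 for members 9, 19 and 20. They were also lowest for members 10 and 17 respectively, which are outside the set. Neither was lowest for any of members 1 to 6. The edge of this set is not sharp: members 10, 15 and 17, outside it, had r of 0.69, 0.74 and 0.73 with members 16, 20 and 9 of the set.

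In SAT the second set kept a weaker co-variation that leaned on the 2 libraries standing apart. The median r over its 21 pairs was 0.727 with all 24 SAT libraries and 0.534 without them. All 21 pairs stayed above 0, the lowest at 0.234. Members 1 to 6 were too close to 0 in SAT for their correlations to be read. Members 8, 11, 12 and 18 correlated least with the rest in VAT, where their highest r with any other member was 0.148, 0.261, 0.388 and 0.473.

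**Figure D3:**
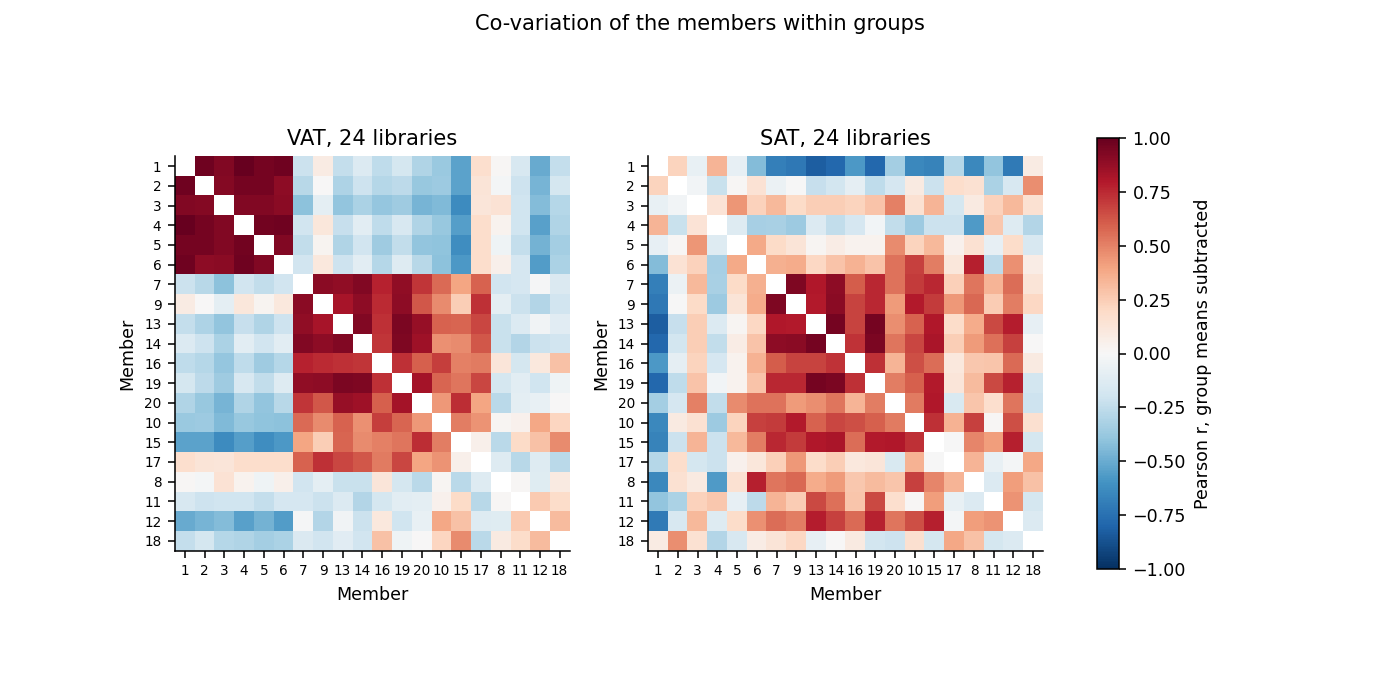
Pearson's r between members in VAT (left) and SAT (right) over 24 libraries each, with group means subtracted; both axes list members in the same order, and colour gives r from -1 (blue) to 1 (red). In VAT, members 1 to 6 form one red block (median 0.959) and members 7, 9, 13, 14, 16, 19 and 20 another (median 0.848), with r near or below 0 between them.

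For some members the level in one depot followed the level in the other depot of the same number. The labels give both depots of 6 rats per group and number them alike, and equal numbers were taken as one rat. Over 24 rats, with group means subtracted, 16 of 20 members had a positive correlation between SAT and VAT. This correlation was not computed gene by gene for all genes, so the counts of members have no background. Over 13755 genes, deviations of same-numbered libraries correlated at a median r of 0.152. A link between the depots was therefore not shown to be particular to the members. For member 14, Pearson's r was 0.60 (adjusted p = 0.008) and Spearman's rho 0.62 (adjusted p = 0.0146), by permutation within groups and Benjamini-Hochberg adjustment over the 20 members. For member 9 (ENSRNOG00000042860), r was 0.60 (adjusted p = 0.008) and rho 0.57 (adjusted p = 0.0326) by the same permutation test.

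Members 7 and 13 also passed. Member 7 had r = 0.56 (permutation, adjusted p = 0.0197) and rho = 0.58 (adjusted p = 0.0316), and member 13 had r = 0.51 (permutation, adjusted p = 0.008) and rho = 0.51 (adjusted p = 0.044). Without the 2 rats farthest from the SAT median, r was 0.59, 0.73, 0.48 and 0.68 for members 7, 9, 13 and 14. In the 20 rats without a library that stands apart, r was 0.66, 0.84 and 0.83 for members 7, 9 and 14, which passed again. Member 13, at r = 0.53, did not pass there (permutation, adjusted p = 0.0599). All 4 belong to the second set, so they are not 4 independent cases. Members 1 to 6 had r from -0.27 to 0.48, with no adjusted p under 0.05, and their SAT values are mostly a few counts.

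The time of day and exercise were not used to choose the members, so these comparisons were tested, each over all genes that passed a filter on low counts. All 20 members entered the tests in VAT. In SAT 14 entered, and members 1 to 5 and 18 did not pass the filter. Since the depots of a member never overlap, a change with time or exercise large enough to bridge them could not occur among these genes.

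Late against early active phase in exercised rats changed 3 of the 20 members in VAT, 2 upward and 1 downward. Of all 13883 genes tested in VAT, 2919 (21%) were called in this comparison (10.3% higher and 10.8% lower), so the share among the members is near the background. An unadjusted p under 0.05 was reached by 6 members (30%) and by 34.1% of all genes.

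ENSRNOG00000042860, member 9, rose most of the 3. In VAT of early exercised rats its lowest, median and highest values were 82.8, 165 and 195 CPM. In late exercised rats they were 210, 328 and 390 CPM. The 2 groups did not overlap. The log2 fold change was 1.07 ± 0.34 (SE, adjusted p = 0.0268, edgeR's quasi-likelihood test with Benjamini-Hochberg adjustment). The adjusted p rose above 0.05 when any one of 5 libraries was left out (EAE replicates 3 and 4, LAE replicates 2, 4 and 5), with the direction kept.

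ENSRNOG00000015220, member 8, had a lowest, median and highest value of 5.69, 10.6 and 12.7 CPM in VAT of early exercised rats. In late exercised rats it had 10.01, 13.2 and 18.9 CPM. The groups overlapped, and the log2 fold change was 0.58 ± 0.17 (SE, adjusted p = 0.0172 by edgeR with Benjamini-Hochberg adjustment). In sedentary rats the groups lay in the same order, with a mean of 10.1 ± 2.30 CPM in EAC and 13.6 ± 0.991 CPM in LAC (SD, n = 6), but the log2 fold change of 0.43 did not pass (adjusted p = 0.109, edgeR).

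ENSRNOG00000050675, member 10, fell. Its lowest, median and highest values in VAT were 14.8, 20.1 and 24.7 CPM in early exercised rats and 8.65, 11.1 and 15.8 CPM in late exercised rats. Only the highest late value lay above the lowest early value. The log2 fold change was -0.69 ± 0.23 (SE, adjusted p = 0.0319 by edgeR with Benjamini-Hochberg adjustment). In sedentary rats it was -0.44 (adjusted p = 0.234, edgeR). The call was lost when any one of 6 libraries was left out (EAE replicates 1, 5 and 6, LAE replicates 3, 4 and 5).

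**Figure D4:**
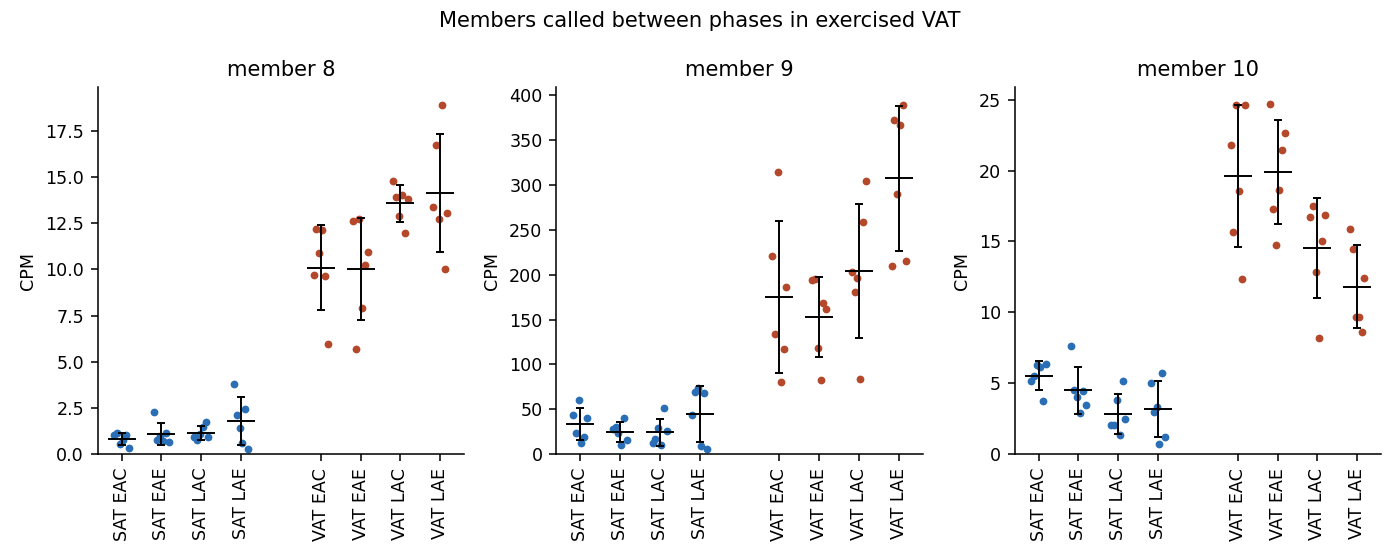
CPM of members 8, 9 and 10 in the 8 groups, SAT in blue and VAT in red, 1 point per library, with the mean and SD of 6 libraries in black. In VAT the late exercise values of member 9 start at 210 CPM, above the highest early exercise value of 195 CPM, while members 8 and 10 overlap between these groups.

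Member 6 had the largest fitted change of the 20 in this comparison, a log2 fold change of 1.24 ± 0.50 (SE), and did not pass (adjusted p = 0.0822, edgeR). Its VAT mean was 9.66 ± 5.80 CPM in early and 21.1 ± 6.26 CPM in late exercised rats (SD, n = 6). With the replicate number as a block, member 6 was called as well, and with limma voom and quality weights member 12 was. Leaving out LAE replicate 4 ended all 3 calls, and leaving out LAE replicate 5 left 1.

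In sedentary rats, phase changed 0 of the 20 members in VAT by edgeR, where 11.3% of all genes were called. An unadjusted p under 0.05 was reached by 1 member, DESeq2 called 0 and limma voom called 1, member 8. The change with phase was not shown to differ between exercised and sedentary rats: the difference of the 2 phase effects passed for 0 of 20 members in VAT and for 0% of all genes by edgeR, with 0 members at an unadjusted p under 0.05 and 0 called by DESeq2 or limma voom. For neither of these comparisons is the share of all genes at the unadjusted threshold given here. For member 9 the difference of the 2 phase effects was 0.87 ± 0.48 (SE, adjusted p = 0.781, edgeR).

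**Figure D5:**
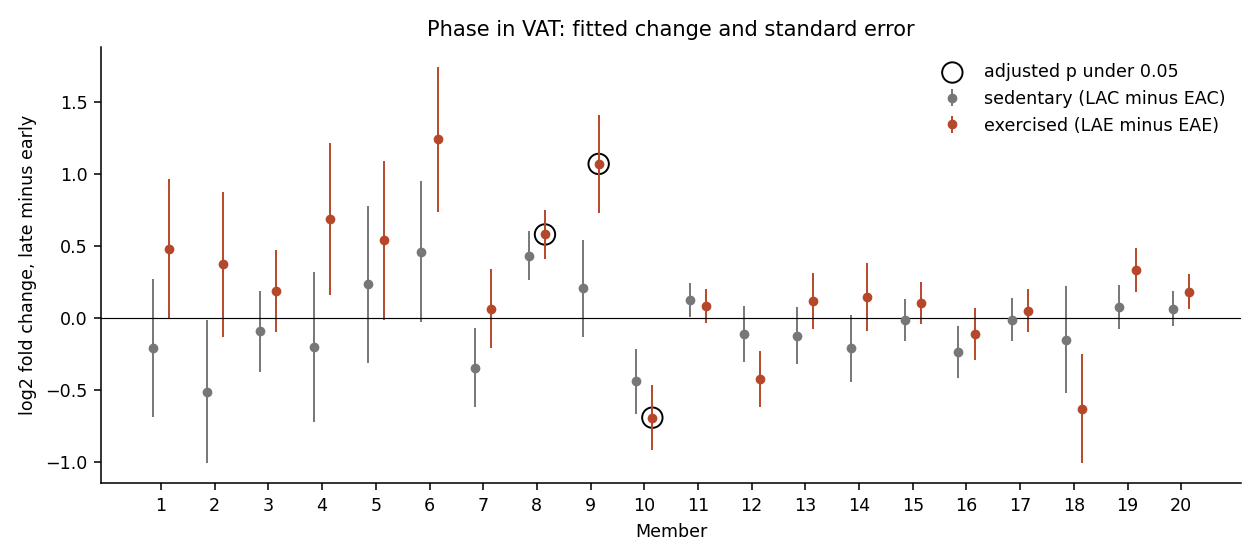
Fitted log2 fold change, late minus early active phase, in VAT for members 1 to 20, sedentary rats in grey and exercised rats in red, with standard errors; circles mark an adjusted p under 0.05. Only members 8, 9 and 10 in exercised rats are circled, and members 1, 2, 4, 5 and 6 carry the widest errors.

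No member was called between exercised and sedentary rats in VAT. In the early phase (EAE against EAC), edgeR called 0 of 20 members and 0% of all genes, with 0 members at an unadjusted p under 0.05 and 0 called by DESeq2 or limma voom. In the late phase (LAE against LAC), edgeR called 0 of 20 members and 0% of all genes, with 1 member at an unadjusted p under 0.05, member 12, and 0 called by DESeq2 or limma voom. The shares of all genes at the unadjusted threshold in these exercise comparisons are not given here. The standard errors of the VAT fits ran from 0.12 to 0.55 on the log2 scale, so a change in members 1, 2, 4, 5 and 6, which had the widest errors, would have had to be larger than one in the steadier members to be called. Member 1, for example, had 59.3 ± 37.1, 37.0 ± 22.4, 52.0 ± 30.6 and 47.8 ± 11.002 CPM in EAC, EAE, LAC and LAE (SD, n = 6), and its 4 groups overlapped throughout.

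In SAT edgeR called 0 of the 14 members tested in each of the 4 comparisons. Phase in sedentary rats was called for 3.22% of all genes, and an unadjusted p under 0.05 was reached by 15.2% of all genes and by 1 member, member 10 (log2 fold change -0.99 ± 0.42, adjusted p = 0.246, edgeR). DESeq2 called 0 members there, and limma voom called member 10. Phase in exercised rats was called for 17.3% of all genes, and an unadjusted p under 0.05 was reached by 33.3% of all genes and by 0 members. DESeq2 called 0 members there, and limma voom called member 8. Early exercise was called for 0% of all genes, with 0.911% of all genes and 0 members at an unadjusted p under 0.05. Late exercise was called for 11.5% of all genes, with 30.7% of all genes and 1 member at an unadjusted p under 0.05. DESeq2 and limma voom called 0 members in either exercise comparison.

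The SAT results depended on the 2 late exercise libraries that stand apart. Without the 4 such libraries, phase in exercised rats called members 8 and 9, both higher late, against 12.2% of all genes. Phase in sedentary rats then called member 10, lower late, against 8.56% of all genes. In VAT, members 8 and 9 were called higher late in the same comparison, whereas member 10 was called lower late in exercised rats and not in sedentary rats. Late exercise then had 8 of the 14 members (57.1%) at an unadjusted p under 0.05, against 20% of all genes, but edgeR still called 0. The median log2 fold change over the members was 0.62 in place of 0.24, with 12 of 14 positive. The median and the share positive over all genes without these libraries are not given here. Both libraries left out were below all other SAT libraries for 8 of members 7 to 20, so leaving them out raises the late exercise mean of those members. Members of the second set vary together, so these counts are not of independent cases. Member 9 in SAT of late exercised rats had 43.6, 68.5, 69.2 and 74.1 CPM in 4 libraries and 5.49 and 8.94 CPM in the 2 that stand apart, against 10.1 to 39.9 CPM in early exercised rats. Its SAT controls ran from 13.0 to 60.8 CPM in EAC and from 10.1 to 51.0 CPM in LAC, both reaching above 43.6 CPM.

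Whether the depot difference of a member changed with condition was tested over all 48 libraries. The depot difference changed with phase in 0 of 20 members by edgeR, where 6.83% of all genes were called, with 0 members at an unadjusted p under 0.05. It changed with early exercise in 0 of 20 and with late exercise in 0 of 20, each against 0% of all genes, with 0 and 3 members at an unadjusted p under 0.05. At that threshold stood 21.5%, 1.07% and 16.8% of all genes. DESeq2 and limma voom called 0 members in these 3 comparisons. The 3 members were 11, 17 and 18, with log2 differences of 1.42 ± 0.63, 0.67 ± 0.31 and 2.27 ± 1.01 (SE). Member 18 had no SAT library above 3 counts. For member 2, with a count of 0 in every late SAT library, the late exercise value had an SE of 1184 and cannot be read.

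These fits leave out that a rat gave both depots. With the rat, taken from the replicate number, as a block, 0 members were called in any of the 3 comparisons, with 2, 1 and 4 at an unadjusted p under 0.05. The genes called for depot by phase fell from 1004 to 520. The shares of all genes at the unadjusted threshold in the blocked fits are not given here, so these member counts have no background. The 2 for phase were members 6 and 19, with log2 differences of 1.28 ± 0.54 (SE, adjusted p = 0.166, edgeR) and 0.46 ± 0.17 (adjusted p = 0.128, edgeR). The comparison of depot by phase averages control and exercised rats. Member 6 had a per-rat difference of L of 2.91 ± 0.85 in EAE and 4.59 ± 1.17 in LAE (SD, n = 6). In controls the change was smaller, from 3.69 ± 0.81 in EAC to 4.02 ± 1.17 in LAC. Member 9 had 2.41 ± 0.15 in EAC and 3.15 ± 0.59 in LAC, and 2.68 ± 0.44 in EAE and 3.26 ± 1.53 in LAE. Its blocked value was 0.69 ± 0.35 (SE, adjusted p = 0.253, edgeR).

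Members 11 and 17 were not called for depot by late exercise (adjusted p = 0.249 and 0.258, edgeR). Their means in late controls and late exercised rats lay further apart in SAT than in VAT. Member 11 had 12.9 ± 2.42 CPM in SAT of late controls and 4.75 ± 4.07 CPM in SAT of late exercised rats, with 29.1 ± 4.598 and 28.3 ± 2.82 CPM in VAT (SD, n = 6). Member 17 had 64.7 ± 11.5 and 40.0 ± 18.4 CPM in SAT and 122 ± 13.4 and 120 ± 16.9 CPM in VAT. The 2 SAT libraries that stand apart had 0.544 and 2.55 CPM of member 11 and 26.8 and 29.6 CPM of member 17; their part in the difference was not tested for these members singly.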

How the data were processed

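PolyA RNA of 48 libraries was sequenced as single-end reads, per the labels' protocols. The authors deposited estimated counts per gene as whole numbers; the submitters' processing notes list Salmon 1.4.0 and rn6. The annotation release was not given in the sources used here. Of 47357 rows of the gene name table at hand, 0 carried an Ensembl ID and 0 of 23481 IDs matched, so gene lists, cell type markers, promoter motifs and sequences were not used here, and at most 2 IDs per direction and comparison are named: those with the largest change.

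Members and lists were chosen with earlier results of these data known. Of 2 IDs the rule removes, 1 was in the table and 0 met the rule. Estimated counts were rounded and entered edgeR 4.0.16 under R 4.3.3 (TMM, filterByExpr, quasi-likelihood fit per depot, or over 48 libraries for depot by condition), with Benjamini-Hochberg adjustment over all genes at 0.05. The fits were also run on simulated counts drawn from the model they assume, with no library that stands apart. That run does not show how the fits behave with such libraries. Standard errors are the log2 fold change over the square root of F. Alternatives were DESeq2 1.42.0 (size factors, Wald test), limma 3.58.1 voom, no filter, a replicate block, and leaving out libraries; the comparison of phase effects between exercised and sedentary rats was added after seeing the data. Correlations used 100000 permutations. Replicates are separate rats, per the labels.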

Additional observations from a re-analysis of the deposited data

Results flagged for a closer look

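Of 132 sets of 6 libraries (a member in a group), 9 had 1 library far from the other 5 by Dixon's criterion, and chance flags about 1 in 20. High SAT values were 9.54 CPM for member 7 in LAC replicate 5 (next highest 3.96 CPM), 76.4 CPM for member 15 in the same library (44.3 CPM), and 2.26 CPM for member 8 (1.15 CPM) and 7.61 CPM for member 10 (4.53 CPM), both in EAE replicate 1. High VAT values were 32.7 CPM for member 11 in EAC replicate 5, a library that stands apart as a whole (next 26.6 CPM), and 115 CPM for member 12 in LAC replicate 2 (74.2 CPM), the library in which members 1, 3, 4, 5 and 6 were lowest. Low VAT values were 104 CPM for member 17 in EAE replicate 4 (next lowest 121 CPM), 427 CPM for member 19 in LAC replicate 4 (526 CPM) and 214 CPM for member 20 in LAE replicate 6 (247 CPM).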

How the results depend on the processing

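The number of genes that met the rule was 20, 21 with TMM library sizes (16 of the 20 kept), 19 with a pseudocount of 2 (member 18 lost), 22 without the 4 libraries that stand apart, 9 with a mean difference of at least 2, and 20 to 28 with 1 library left out (28 without VAT LAC replicate 4). Counts of members called moved from 0 to 1 with limma voom for phase in SAT of sedentary and of exercised rats and in VAT of sedentary rats. Without the libraries that stand apart they moved from 0 to 1 and 2 for phase in SAT of sedentary and exercised rats. With 1 library left out, VAT phase in exercised rats called 0 to 3 members (0 without VAT LAE replicate 4, 1 without replicate 5), and SAT late exercise 0 to 1 (1 without SAT LAE replicate 5). With a replicate block, VAT phase in exercised rats called 4 members and the other comparisons 0; within a depot the numbers name different rats, so the block there pairs by number only, while the comparisons across depots took the rat as the block. Between depots, deviations of same-numbered libraries correlated at -0.132 to 0.252 over 13755 genes, over 0.1 in 17 of 24 rats. Counts in SAT limit members 2, 3, 5 and 18 most. Members 1 and 4 are limited as well, with 3 counts or fewer in 12 and 17 of the 24 SAT libraries. The causes of these differences were not tested.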

Other observations

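The co-variation within VAT extended beyond the genes without overlap. Member 1 correlated at r of 0.9 or more, group means subtracted, with 33 of 13882 genes (0.238%), 5 of them members. Of the 33, 28 had a higher mean in VAT and 18 had a mean difference of L of at least 1, which 1.51% of all tested genes had. The share of all tested genes with a higher mean in VAT is not given here. The 5 members among these 18 were chosen by that difference. The 13 of these 18 that were not members overlapped or tied between the depots to different extents. In 1 of them, all 24 SAT libraries and the lowest VAT library were at 0 CPM, a tie rather than an overlap. For the others, 1 to 17 SAT libraries lay at or above the lowest VAT value. In these, 1 to 9 VAT libraries lay at or under the highest SAT value. The one with the largest difference, 3.07, had 9.27 CPM as its VAT median and 0.521 CPM as its SAT median, with 3 and 2 such libraries. Its lowest VAT library was LAC replicate 2, and its highest SAT library was LAE replicate 4, one that stands apart.

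Member 13, of the second set, correlated at 0.9 or more with 18 genes, all with a higher mean in VAT and 2 of them members. Here too, the share of all tested genes with a higher mean in VAT is not given. Of the 18, 9 had a mean difference of at least 1, and 7 of these overlapped between the depots. The libraries share scaling and depth, so these counts describe VAT from these rats and carry no test.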
